A study of Homo sapiens with 58 samples.

Results

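Chromatin accessibility was compared between cranial neural crest cells (CNCCs) holding 8.14% of their SOX9, after 48 h with 16 nM dTAGV-1, and the same cells with no dTAGV-1. The comparison held 14 of the 58 samples of the series, 7 at 16 nM and 7 at 0 nM, chosen by their labelled concentration and time. Accessibility was read by ATAC-seq, an assay of where Tn5 transposase can insert sequencing adapters into open chromatin, as counts in 151,457 regulatory elements (REs) shared by all samples.

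All 14 samples came from SOX9-tagged H9 cells, a human embryonic stem cell line, taken to CNCCs in vitro and used at passage P4. In these cells the endogenous SOX9 protein carries FKBP12-F36V, a tag through which the small molecule dTAGV-1 directs it to degradation, together with mNeonGreen and V5. The tag was present in the 0 nM samples too, which received DMSO as vehicle. There were 2 clones, each from a single edited cell line, with S9CC13 in differentiations R6, R10, R13 and R14 and S9CC47 in differentiations R5, R6 and R8. Each differentiation of a clone gave a sample at 0 nM and a sample at 16 nM, which form a pair. For context, 7 tagged samples at 5 nM (25.8% of SOX9) and 7 at 500 nM (0.95%) from the same differentiations were used. The 7 samples at 0.5 nM (77.9% of SOX9) and 7 at 1.6 nM (51.7%) entered only the scaling of levels, an alternative fit and the plot of changes by concentration. Also used were 4 samples of untagged wild-type (WT) H9 CNCCs at 0 or 500 nM for 48 h, from differentiations labelled R8 and RSh. A time course of tagged cells, in differentiations labelled R4 and R5, held 2 samples each with vehicle, after 3 h and after 24 h of 500 nM. Its sample titles name clone S9CC13, while its R5 count columns name S9CC47. The time course shared no library with the 14 samples, but S9CC47 R5 is also a label among them. SOX9 levels are those of the labels and were not measured by this assay.

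SOX9 is a transcription factor of the SOX family, whose HMG domain binds a short AT-rich core in the minor groove and bends the DNA. SOX9 often binds as a dimer to a pair of cores that face each other, while related factors such as SOX10 share much of this preference. In the cranial neural crest SOX9 acts in crest formation and in the step to cartilage, where it drives genes of the cartilage matrix with SOX5 and SOX6.

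Total counts in REs ran from 33.96 to 65.49 M per sample, and the median RE held 77 to 175 counts. Promoter REs of the crest genes TFAP2A, TWIST1, SNAI2, NR2F1, PAX3 and PRRX1 were open, at 31.9 to 119 CPM per kb (CPM, counts scaled to a library of 1 M counts) at 0 nM for the most open RE of each gene, against 11.2 for the median promoter RE. The most open of several REs is not a like measure to that median. Other promoter REs of these genes stood as low as 1.85 (PAX3), 12.5 (SNAI2) and 13.3 (TFAP2A) CPM per kb. Of the 16 promoter REs of these genes, 1 passed the test at 16 nM (TFAP2A, log2 fold change -0.18). Among markers of other cells, the most open promoter REs of the pluripotency genes LIN28A, DPPA4 and POU5F1 stood at 34.8, 7.71 and 2.51 CPM per kb, those of the neuroepithelial genes PAX6, SOX1 and OTX2 at 17.9, 4.25 and 4.19, and that of the melanocyte gene MITF at 48.2, while the most open glial promoter REs of SOX10 and FOXD3 stood at 3.20 and 8.89 and those of the neuronal genes NEUROG1 and ELAVL4 at 9.35 and 5.08. NANOG, TYR and DCT had 0 promoter REs in the table. For the chondrocyte genes COL2A1, MATN1 and ACAN the most open promoter REs stood at 74.8, 34.1 and 5.49 CPM per kb. The values of COL2A1 and MATN1, like those of LIN28A and MITF, lie within the range of the crest genes. Of the 5 chondrocyte promoter REs, 3 were lower at 16 nM, all of them at COL2A1.

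At 16 nM, 24,604 of the 151,457 REs (16.2%) differed from 0 nM with an adjusted p-value under 0.05, in edgeR's quasi-likelihood test with differentiation batch as covariate. Of these, 13,815 (9.12%) were lower and 10,789 (7.12%) were higher. The lower REs moved further than the higher ones. The median lower RE had a log2 fold change (16 nM over 0 nM) of -0.67, a 1.59-fold drop, and 4,034 of the lower REs (29.2%) fell by more than 1 on the log2 scale. The median higher RE had a log2 fold change of 0.53, and 301 of the higher REs (2.79%) rose by more than 1. Beyond 2 on the log2 scale there were 852 lower REs and 0 higher REs. The direction was shared by all 7 pairs in 11,035 of the lower REs (79.9%) and 7,954 of the higher REs (73.7%). These REs were called from the same samples, so the shared direction is not separate support. With pairs as blocks and no batch term the count was 39,497, of which 21,205 were lower and 18,292 higher. Scaling by total counts gave 11,834 lower and 14,325 higher REs, so the balance between directions depended on the scaling, which TMM set here on the assumption that most REs do not change. In WT cells at 500 nM, where there is no tag to act on, the REs that were lower at 16 nM had median log2 changes of 0.09 and 0.03 in the 2 WT replicates, and the REs that were higher had medians of 0.00 and -0.06.

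Of the 5 REs with the lowest log2 fold changes, among those with a mean of at least 50 counts and the same direction in all pairs, 4 are described here, and they lost nearly all of their signal. An RE 45.1 kb from the start of AGPAT4, an acyltransferase of phospholipid synthesis, lay between genes at chr6:161319140-161319640 (hg38). It held 12.9 to 32.1 CPM (median 16.1) at 0 nM and 0.573 to 1.43 CPM (median 0.673) at 16 nM. Its lowest sample at 0 nM was above its highest at 16 nM, and it fell by 4.56 in log2 units (SE 0.21, adjusted p = 1.7e-10, edgeR), 23.5-fold.

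An RE in an exon of POLR2F at chr22:37967856-37968356 lay 2,330 bp past the end of SOX10, the SOX family factor of glia and melanocytes, and 293 bp from the start of the microRNA gene MIR6820. It fell from a median of 14.8 CPM (3.51 to 16.6) to 0.509 CPM (0.42 to 0.728), a log2 change of -4.32 (SE 0.22, adjusted p = 2.3e-10, edgeR). An intronic RE of ACTN4, an actin cross-linking protein, at chr19:38721937-38722437 fell from a median of 27.9 CPM (14.8 to 36.7) to 1.37 CPM (0.82 to 2.25), a log2 change of -4.22 (SE 0.20, adjusted p = 2.0e-10, edgeR). The remaining RE lay in an intron of a gene without a symbol (ENSG00000285826), 1,488 kb from FLRT2, at chr14:84042062-84042562. It went from 0.834 to 4.33 CPM (median 3.43) at 0 nM down to 0 to 0.329 CPM (median 0.123) at 16 nM, and its log2 fold change was -4.45 (SE 0.35, adjusted p = 2.0e-08, edgeR). Its 0 was the 16 nM sample of S9CC13 R10, where 3 counts are worth 0.0781 CPM. None of these 3 REs had overlapping groups. For REs named by the largest changes or the smallest p-values, here and below, such separation goes with the choice. Its share over all REs was not counted.

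A window of 201 bases at the middle of the AGPAT4 RE (hg38, forward strand, chr6:161319290-161319490) is shown because this RE had the lowest log2 fold change. Capitals mark SOX cores, searched as ACAAAG or ACAATG on both strands. The AGPAT4 RE held 2 cores in its full length, of which 1 lies in this window, while the ACTN4 RE held 0 cores as searched.
AGPAT4: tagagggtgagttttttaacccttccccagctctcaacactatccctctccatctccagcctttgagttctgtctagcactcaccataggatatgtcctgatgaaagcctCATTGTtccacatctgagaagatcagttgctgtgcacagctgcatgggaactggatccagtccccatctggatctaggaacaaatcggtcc

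The 5 REs with the highest log2 fold changes were less open at the start and changed less. An intronic RE of ADGRB3, an adhesion receptor of neurons, at chr6:69012127-69012627 rose from a median of 0.66 CPM (0.321 to 0.844) to 2.34 CPM (1.00 to 2.62). The groups did not overlap, and the log2 fold change was 1.66 (SE 0.21, adjusted p = 8.3e-06, edgeR). An intergenic RE 134 kb from PTTG1, the securin of mitosis, at chr5:160556228-160556728 rose from a median of 0.713 CPM (0.264 to 0.792) to 2.37 CPM (0.978 to 3.16), with a log2 change of 1.65 (SE 0.18, adjusted p = 1.1e-06, edgeR), and its groups did not overlap.

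The other 3 REs rose in all 7 pairs, which their choice required, but the samples of the 2 groups overlapped. An RE 30.7 kb from INTS6L, a relative of an Integrator subunit, at chrX:135489486-135489986 held 1.12 to 3.17 CPM (median 2.12) at 0 nM and 2.51 to 14.2 CPM (median 6.64) at 16 nM (log2 fold change 1.6, SE 0.20, adjusted p = 5.4e-06, edgeR). The pair of S9CC13 R14 showed the smallest rise there, from 2.47 to 2.90 CPM. An RE 200 kb from MKI67, which encodes the proliferation antigen Ki-67, went from 0.547 to 2.73 CPM (median 0.84) to 1.14 to 8.67 CPM (median 2.56), with a log2 fold change of 1.63. An RE 760 kb from the potassium channel gene KCNA4 went from 0.408 to 1.63 CPM (median 0.797) to 1.35 to 5.31 CPM (median 2.79), with a log2 fold change of 1.57.

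**Figure D1:**
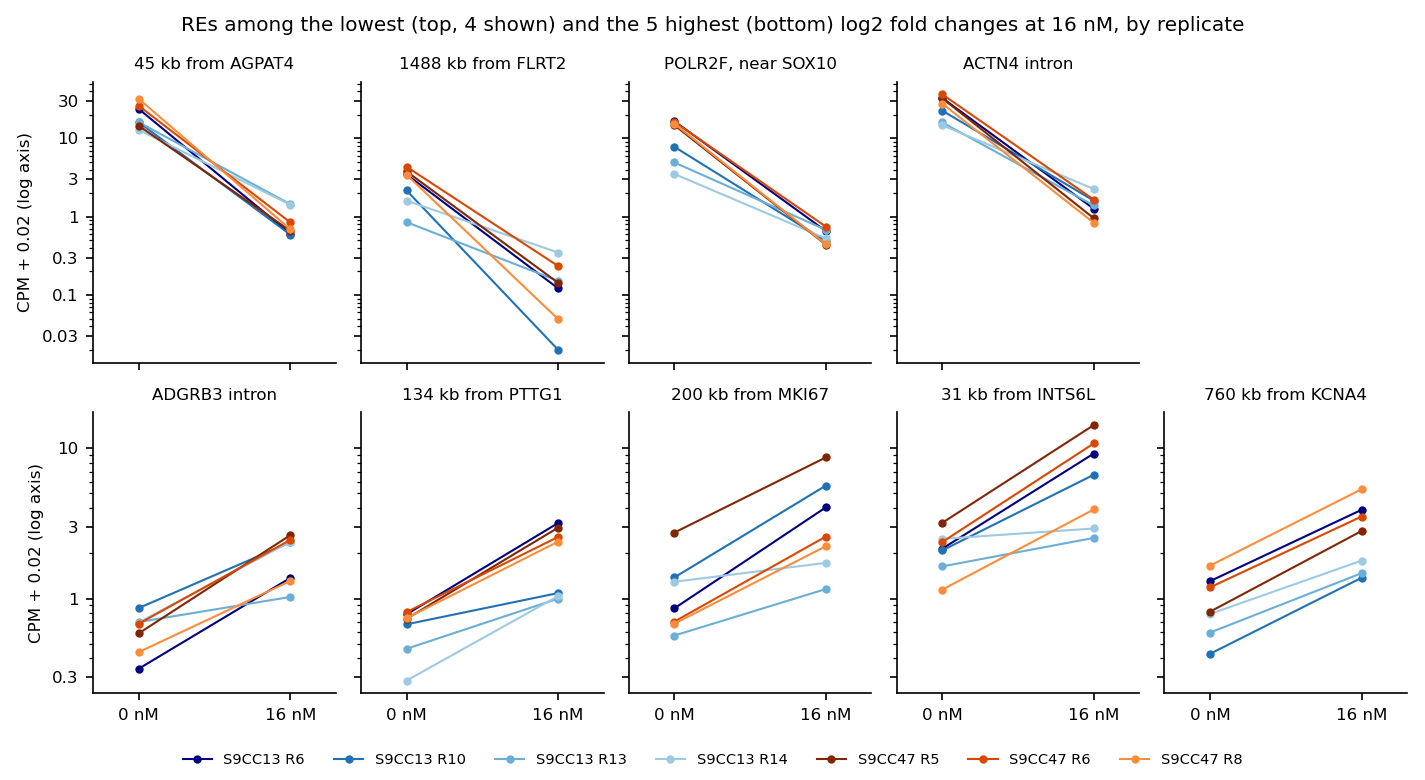
CPM (plus 0.02, log axis) at 0 and 16 nM for 4 of the REs with the lowest log2 fold changes (top) and the 5 with the highest (bottom), with a line for each of the 7 pairs (blue, S9CC13; orange to brown, S9CC47). Every line falls in the top panels and rises in the bottom panels, which the choice of these REs required. The groups overlap for the REs near MKI67, INTS6L and KCNA4.

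Set beside the neighbouring concentrations, the fitted change at 16 nM lay between those at 5 and 500 nM for most of these REs. They had been chosen by their change at 16 nM. In direct tests of 16 against 5 nM, the 4 lowest described and the 5 highest all passed, where 0.959% of all REs did. From 16 to 500 nM, 0 of the 4 and 1 of the 5 passed, the INTS6L RE (adjusted p = 0.048, edgeR, and 0.098 in DESeq2). Of all REs 1.28% passed that step. With the pair as block the ACTN4 and MKI67 REs passed it too. The same 16 nM samples served for the choice and for both tests, so these counts are not separate support. At the AGPAT4 RE the log2 fold changes against 0 nM were -2.61 at 5 nM, -4.56 at 16 nM and -5.28 at 500 nM. At the RE far from FLRT2 they were -2.04, -4.45 and -3.73, and the direct test of 500 against 16 nM gave 0.81 (adjusted p = 0.46, edgeR), which does not show that the 2 concentrations gave equal signal. At the INTS6L RE they were 0.71, 1.6 and 2.19. These comparisons share the 0 nM samples. WT cells, which lack the tag, gave log2 changes at 500 nM of 0.06 to 0.93 for the 4 lowest REs described and of -0.39 to 0.70 for the 5 highest REs in single replicates.

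Direct tests across all REs gave fewer changes between neighbouring concentrations than between 16 and 0 nM. From 16 to 500 nM, 1,933 REs (1.28%) passed, of which 1,534 (1.01%) were lower and 399 (0.263%) higher at 500 nM, and with the pair as block 12,313 passed. From 5 to 16 nM, 1,453 REs (0.959%) passed, of which 1,316 (0.869%) were lower and 137 (0.0905%) higher at 16 nM, and with the pair as block 3,481 passed. The 5 nM sample of S9CC47 R6 followed its pair least, with a correlation of 0.165 between the deviations of its 5 and 16 nM samples against a mean of 0.727 over the 7 pairs. Without that pair 5,488 REs passed from 5 to 16 nM, 3,852 lower and 1,636 higher.

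SOX cores became more common the further an RE fell. Among the 123,778 REs of 501 bp, 46.9% held a core, against 65.4% of the lower REs, 47.6% of the higher REs and 45.0% of those that passed in neither direction. In REs that fell by more than 2 on the log2 scale the share was 87.2%. Pairs of cores that face each other 3 to 5 bases apart, ACAAAG or ACAATG before CTTTGT or CATTGT on the same strand, were in 0.203% of all these REs, in 1.77% of the lower REs and in 7.73% of those that fell by more than 2. Of REs not called, 0.0564% held such a pair, and of the higher REs 0.0349%. Over 17 other settings of the fit the share among lower REs ran from 1.24 to 3.36%. A match to these letters is not a measured binding site.

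**Figure D2:**
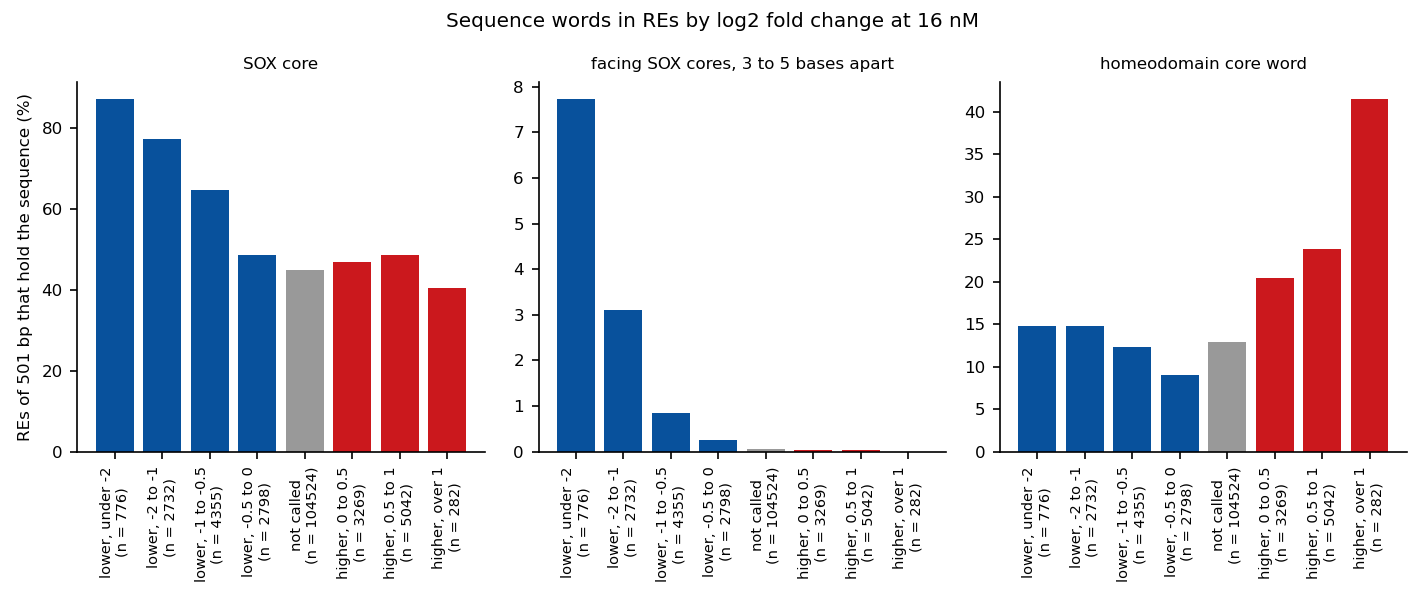
Share (%) of 501-bp REs that hold a SOX core, a pair of facing cores or the homeodomain core word, by bin of the log2 fold change at 16 nM (blue, lower; grey, not called; red, higher; n REs in each bin in parentheses). The shares of the SOX sequences peak in the lowest bin, at 87.2 and 7.73%, and the homeodomain word peaks in the highest bin, at 41.5% of 282 REs.

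Counted over REs of any width, 328 held facing cores 3 to 5 bases apart. Of these, 245 (74.7%) were lower at 16 nM, 3 were higher and 80 did not pass, where 9.12% of all REs were lower. Their median log2 fold change was -1.09, against 0.01 for all REs, and 63 of them fell by more than 2. Medians in single pairs, from CPM with 0.1 added, were -1.19, -0.88, -0.65 and -0.56 in S9CC13 R6, R10, R13 and R14, and -1.14, -1.02 and -1.16 in S9CC47 R5, R6 and R8, all below 0. The facing-core REs had medians of -0.59 at 5 nM and -1.32 at 500 nM. In the time course, 251 of the 328 (76.5%) were lower 3 h after 500 nM, where 7.43% of all REs were, and 0 were higher (edgeR adjusted p under 0.05, with 1,381 REs higher over the whole table).

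Spacing and orientation of the cores went with the share of REs that fell. With facing cores 3 bases apart 63 of 78 REs (80.8%) were lower, with 4 bases 127 of 163 (77.9%), and with 5 bases 56 of 88 (63.6%). At the other facing distances from 0 to 10 bases between 13.2 and 38.1% were lower, the highest being 24 of 63 REs at 7 bases. Cores turned away from each other (CTTTGT or CATTGT first) gave between 8.11 and 40.0% lower REs, the highest being 24 of 60 at 8 bases. REs with pairs at several distances count at each.

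**Figure D3:**
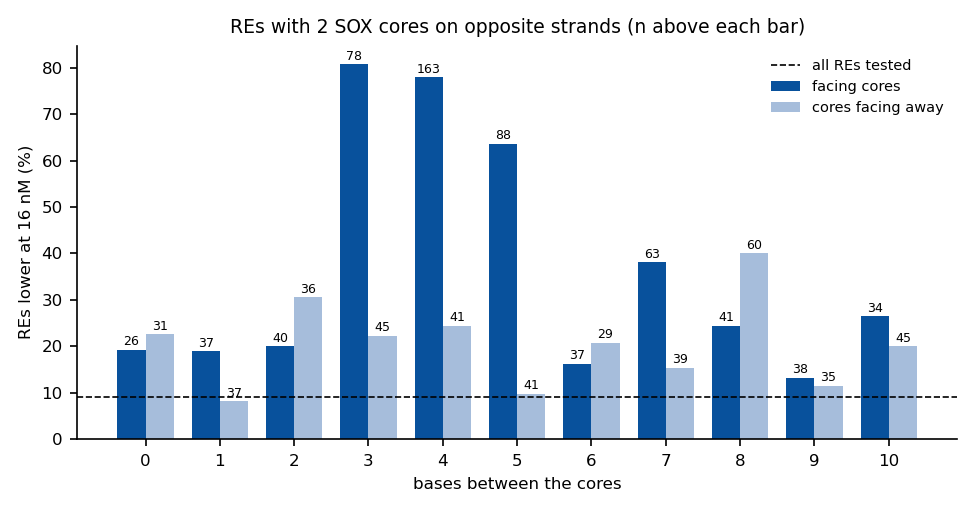
Share (%) of REs that were lower at 16 nM, by the number of bases between 2 SOX cores that face each other or point away from each other. Facing cores stand at 63.6 to 80.8% for 3 to 5 bases, and the remaining points lie at or below 40.0%.

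Of the 4 facing-core REs with the smallest p-values, 3 are shown as windows of 101 bases (hg38, forward strand) with the facing cores in capitals and their 3 or 4 spacer bases between them. They are chr21:45326313-45326413 near POFUT2, chr11:73652510-73652610 at PLEKHB1 and chr1:18941342-18941442 in an intron of IFFO2.
POFUT2: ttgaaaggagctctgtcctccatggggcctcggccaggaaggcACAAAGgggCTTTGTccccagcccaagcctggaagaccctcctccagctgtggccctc
PLEKHB1: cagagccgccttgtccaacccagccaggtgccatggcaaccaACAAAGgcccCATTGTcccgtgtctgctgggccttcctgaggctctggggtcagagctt
IFFO2: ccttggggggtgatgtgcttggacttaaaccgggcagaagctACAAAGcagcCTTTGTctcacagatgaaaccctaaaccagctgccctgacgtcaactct

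PLEKHB1 encodes a membrane protein with a pleckstrin homology domain, and its RE overlaps an annotated start of the gene. It held 26.2 to 59.1 CPM (median 45.6) at 0 nM and 3.31 to 7.04 CPM (median 5.08) at 16 nM, a log2 change of -3.15 (SE 0.18, adjusted p = 8.0e-10, edgeR). The RE near POFUT2, which adds fucose to secreted proteins, held 26.4 to 53.0 CPM (median 34.5) at 0 nM and 7.44 to 14.5 CPM (median 9.98) at 16 nM, a log2 change of -1.86. The groups overlapped in none of the 3 REs, and the IFFO2 RE had a log2 fold change of -2.08. From 16 to 500 nM the PLEKHB1 RE gave a further log2 change of -1.45 (adjusted p = 2.4e-05, edgeR), while the POFUT2 RE gave -0.13 (adjusted p = 0.62).

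The higher REs held fewer G and C bases and more often the word TAATTA, the core bound by many homeodomain factors. Their median GC content was 43.5%, against 47.9% in REs that did not pass and 47.7% in the lower REs. TAATTA (the same on both strands) was in 23.1% of the higher REs, 12.9% of those not called and 12.3% of the lower ones, and in 41.5% of the 282 REs that rose by more than 1. Shares of other words made of the same letters differed less. TTATAA was in 18.7% of the higher REs and 13% of those not called, AATATT in 20.4 and 16.1%, and among REs that rose by more than 1 they were in 19.1 and 25.2%. The part of base composition in the TAATTA share was not tested beyond these words.

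TAATTA (capitals) is shown in 2 of the 5 REs with the highest log2 fold changes, as windows of 201 bases (hg38, forward strand) at chr5:160556378-160556578 and chrX:135489636-135489836. The middle windows of the other 3 of these REs do not hold it.
PTTG1: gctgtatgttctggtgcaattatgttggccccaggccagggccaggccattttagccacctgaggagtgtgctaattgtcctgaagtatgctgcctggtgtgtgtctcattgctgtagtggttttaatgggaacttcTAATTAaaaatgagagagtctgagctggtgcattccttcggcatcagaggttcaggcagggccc
INTS6L: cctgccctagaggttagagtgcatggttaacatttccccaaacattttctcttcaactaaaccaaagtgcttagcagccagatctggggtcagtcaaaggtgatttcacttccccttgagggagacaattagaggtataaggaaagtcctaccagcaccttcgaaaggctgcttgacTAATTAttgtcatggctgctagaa

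Words of other factors differed by fewer percentage points between the classes than the SOX core and TAATTA. The E-box CAGATG was in 47.4% of lower, 47.1% of higher and 41.1% of REs not called, and AGGTCA, part of the site of NR2F factors, in 38.5, 39.4 and 33.0%. The TFAP2 word GCCNNNGGC was in 23.6, 19.7 and 23.4%, the AP-1 word TGANTCA in 15.6, 18.5 and 15.2%, and the TEAD word GGAATG in 32.4, 34.3 and 30.4%. The word CCACNAGG, part of the site of the insulator protein CTCF, was in 8.58, 6.73 and 11.6%. It was thus less common in both changed classes than in REs not called. All words were searched on both strands.

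The time course, with other libraries, gave changes at 3 and 24 h of 500 nM. All 16 nM samples were taken at 48 h, so the timing of the 16 nM response was not measured. At 3 h of 500 nM 12,633 REs (8.34%) passed, 11,252 (7.43%) lower and 1,381 (0.912%) higher, and at 24 h 22,160 (14.6%) passed, 15,044 (9.93%) lower and 7,116 (4.7%) higher. Of the 11,252 REs lower at 3 h, 8,247 (73.3%) were lower at 16 nM and 92 higher, and they made up 59.7% of all REs lower at 16 nM. Of the 7,116 REs higher at 24 h, 2,790 (39.2%) were higher at 16 nM, which was 25.9% of the REs higher there. Of the 1,381 REs higher at 3 h, 286 were higher and 76 lower at 16 nM. With 2 samples a group the time-course counts depended on single samples. Without the R4 vehicle sample 7,487 REs passed at 3 h and 10,741 at 24 h, without the R4 sample at 3 h 8,153 passed at 3 h, and without batch as covariate 0 passed at 3 h in edgeR (8,306 at an unadjusted p under 0.05, and 8,523 in DESeq2 with batch) and 969 at 24 h.

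The REs that were lower at 3 h gave the size of the 16 nM response in each pair. Their median log2 changes at 16 nM were -0.86, -0.68, -0.41 and -0.36 in S9CC13 R6, R10, R13 and R14, and -0.81, -0.74 and -0.78 in S9CC47 R5, R6 and R8. All 7 medians were below 0, with a mean of -0.66 ± 0.20 (SD, n = 7), and R13 and R14 gave the smallest changes. Without these 2 pairs 20,329 REs passed at 16 nM in all. The same REs had means of -0.44 ± 0.11 at 5 nM and -0.84 ± 0.18 at 500 nM. REs lower at 24 h but not called at 3 h moved less at 16 nM, with a mean of pair medians of -0.32 ± 0.09 and 2,315 of 5,193 (44.6%) called lower. REs higher at 24 h had a mean of 0.20 ± 0.08.

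**Figure D4:**
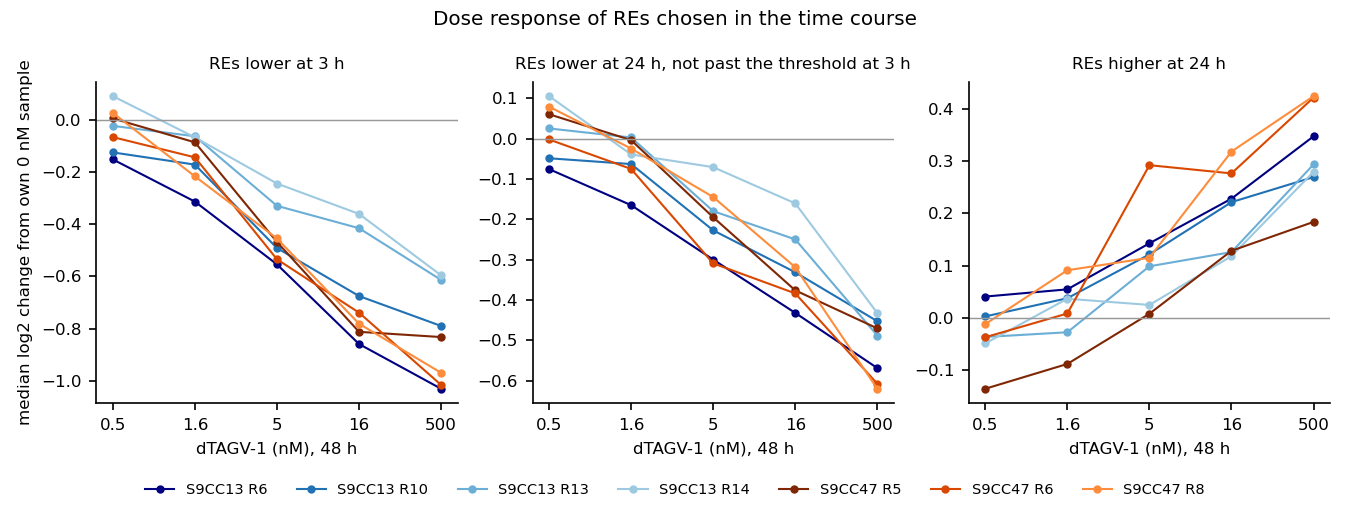
Median log2 change against 0 nM in each of the 7 pairs, by dTAGV-1 concentration, over REs grouped by their time-course calls. For REs lower at 3 h the pairs lie between -0.36 and -0.86 at 16 nM, and for REs higher at 24 h between 0.12 and 0.32.

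The 4 lowest REs described above were all lower at 3 h, with log2 fold changes from -4.23 to -3.31. Of the 5 highest, 0 passed at 3 h in edgeR (lowest adjusted p = 0.11, the RE near MKI67) and 5 were higher at 24 h (highest adjusted p = 0.046, the ADGRB3 RE). At the AGPAT4 RE the log2 fold changes were -3.31 at 3 h and -4.53 at 24 h, and at the KCNA4 RE they were 0.39 (adjusted p = 0.53) and 1.53 (adjusted p = 0.00014, edgeR).

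The 2 clones share no sample. In S9CC13 alone (4 pairs) 15,021 REs (9.92%) passed, 9,478 (6.26%) lower and 5,543 (3.66%) higher, and in S9CC47 alone (3 pairs) 33,476 (22.1%) passed, 16,886 (11.1%) lower and 16,590 (11.0%) higher. Without R6, 7,310 REs passed in S9CC13, and without R10 8,989 did. Of the REs lower in S9CC13, 8,397 (88.6%) were lower in S9CC47, which is 49.7% of those lower there. Of the REs higher in S9CC13, 4,553 (82.1%) were higher in S9CC47, which is 27.4% of those higher there. There were 3 REs called in opposite directions. REs lower in S9CC13 had a median log2 fold change of -0.77 in that clone and -0.90 in S9CC47, and those higher had 0.56 and 0.55.

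The test of the difference between clones found 6 REs (0.00396%), with 9,674 at an unadjusted p under 0.05. All 6 fell in both clones and fell further in S9CC47. The RE near RGS3, a regulator of G protein signalling, had log2 fold changes of -2.89 in S9CC13 and -4.15 in S9CC47 (difference -1.26, adjusted p = 0.025, edgeR), and an RE at a start of the symbol-less gene ENSG00000261329 within KATNIP had -3.26 and -4.61. The number depended on single pairs: it was 655 without S9CC13 R6, 18 without S9CC13 R10, 2 without S9CC47 R5, and 0 without any of S9CC13 R13, S9CC13 R14, S9CC47 R6 or S9CC47 R8. DESeq2 found 2.

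In the main fit, promoter REs, within 1 kb of an annotated start, changed less often than distal ones and mostly downward. Of 37,377 promoter REs 2,778 (7.43%) were lower and 879 (2.35%) higher. For the 25,087 at starts of protein-coding genes these were 1,549 and 270 (1.08%). Introns held 6,234 lower and 5,495 higher REs of 61,766, intergenic sequence 3,937 and 3,847 of 42,831, and exons 866 and 568 of 9,483. The median lower promoter RE had a log2 fold change of -0.45, against -0.74 in introns and -0.71 between genes. Promoters were 20.1% of the lower and 8.15% of the higher REs, and over 18 other settings these shares ran from 14.1 to 31.0% and from 6.28 to 16.4%.

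Promoter REs with the smallest p-values included those at AIF1L, an actin-binding protein gene, and RAB7B, a gene of endosomal transport. The AIF1L RE fell from a median of 28.1 CPM (20.5 to 34.5) to 6.04 CPM (4.72 to 7.74), a log2 change of -2.15 (SE 0.12, adjusted p = 9.3e-10, edgeR). The RAB7B RE fell from 11.6 CPM (6.46 to 13.2) to 1.44 CPM (0.981 to 1.80), a log2 change of -2.89. Neither overlapped between groups. Among higher promoter REs, those of CLUL1, SH3RF2 and BMPR1B had log2 fold changes of 0.67, 0.75 and 0.80, and the groups overlapped in all 3. At CLUL1 and SH3RF2 the call was lost without batch as covariate (adjusted p = 0.11 and 0.18).

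For groups of genes, an RE was assigned to a gene it overlapped or to the nearest protein-coding start within 100 kb, which does not show that it acts on that gene. The shares over all REs, to set beside those of each list, were 9.12% lower and 7.12% higher. The 7 cartilage collagen genes had 78 REs, of which 19 (24.4%) were lower and 6 (7.69%) higher, and with the pair as block 24 and 10. COL2A1, the main collagen of cartilage, had 6 of 9 lower, COL9A3 6 of 10, COL9A2 2 of 3 and COL9A1 2 lower and 1 higher of 4, while COL11A1 had 0 lower and 1 higher of 12, and COL27A1 2 lower and 4 higher of 34. At the COL9A2 start an RE with a facing pair of cores (chr1:40315132-40315632) held 38.5 to 46.6 CPM (median 41.8) at 0 nM and 20.0 to 26.5 CPM (median 23.0) at 16 nM. It fell by 0.86 in log2 units (SE 0.07, adjusted p = 2.6e-08, edgeR), with no overlap. The RE over an internal start of COL2A1 (chr12:47988324-47988824) went from 25.2 to 49.9 CPM (median 36.0) to 12.3 to 29.4 CPM (median 22.4), and fell in all 7 pairs (log2 fold change -0.87, SE 0.07, adjusted p = 2.8e-08, edgeR) although the groups overlapped.

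Of 126 REs of other cartilage matrix genes, 23 (18.3%) were lower and 5 (3.97%) higher, and with the pair as block 28 and 8. UCMA, a protein of cartilage cells, had 3 of 3 lower, and COMP, a matrix protein that links collagen, had 3 of 16. The RE at the start of CHADL, which encodes a collagen-binding protein, fell from a median of 15.6 CPM (12.5 to 22.6) to 5.69 CPM (4.48 to 6.43), a log2 change of -1.65 (SE 0.12, adjusted p = 7.5e-09, edgeR). For MATN4, a matrilin, an exonic RE fell by 1.02. ACAN, the core protein of aggrecan, had 1 lower of 10 REs.

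Chondrogenic transcription factors had 39 lower (13.9%) and 23 higher (8.21%) of 280 REs, and 62 and 33 with the pair as block. The shares over all REs were 9.12 and 7.12%. SOX5 had 14 lower and 1 higher of 48, SOX6 6 and 2 of 48, RUNX3 7 and 0 of 27 and GLI3, the effector of Hedgehog signals, 5 and 0 of 40. An intronic RE of SOX6 (chr11:16001383-16002368) held 6.65 to 22.5 CPM (median 16.5) at 0 nM and 3.26 to 5.09 CPM (median 4.31) at 16 nM, a log2 change of -1.81 (SE 0.15, adjusted p = 4.1e-08, edgeR) with no overlap. An RE 4.72 kb from SCX, the factor of tendon and its joints to cartilage, lay in an intron of BOP1 and fell by 1.06. TRPS1, a repressor in cartilage growth, had 0 lower and 5 higher of 30.

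SOX9 itself had 1 lower and 8 higher of 19 REs. The RE over its start (chr17:72119993-72121187) held 37.2 to 52.2 CPM (median 42.3) at 0 nM and 38.2 to 58.4 CPM (median 46.4) at 16 nM. Its log2 fold change was 0.07 (SE 0.05, adjusted p = 0.41, edgeR), and with the pair as block and a GC correction it was 0.12 (adjusted p = 0.011).

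Glial genes had 22 lower (27.2%) and 3 higher (3.70%) of 81 REs. GFRA3, a receptor subunit for a neurotrophic factor, had 5 of 5 lower, SOX10 2 of 10, SOX8 2 of 7, S100B 2 of 3, and ERBB3, the neuregulin receptor of Schwann cells, 2 lower and 1 higher of 3. The intronic ERBB3 RE (chr12:56081524-56082024) fell from a median of 13.3 CPM (8.76 to 21.1) to 2.71 CPM (1.98 to 3.47), a log2 change of -2.44 (SE 0.16, adjusted p = 3.7e-09, edgeR), with no overlap. The promoter REs of SOX10 and FOXD3 did not pass. Whether fewer glial cells or less open chromatin in each cell gave these values cannot be told apart in bulk samples.

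Neuronal genes had 15 lower (12.7%) and 1 higher (0.847%) of 118 REs, and 24 and 8 with the pair as block. NEUROG1 and ELAVL4 had 3 lower each, and 3 of their 5 promoter REs were lower. Melanocyte genes had 5 lower (7.81%) and 7 higher (10.9%) of 64, where 9.12 and 7.12% of all REs were, and 7 and 12 with the pair as block. At EDNRB, the endothelin receptor of crest cells, 2 REs were lower and 4 higher of 12, and the RE with the smallest p-value fell from a median of 2.26 CPM (1.37 to 3.74) to 0.469 CPM (0.22 to 0.608).

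Transcription factors of the neural crest and face had 42 lower (9.33%) and 29 higher (6.44%) of 450 REs, near the 9.12 and 7.12% of all REs. The larger direction turned with total-count scaling (35 and 43), with the pair as block and a GC correction (57 and 69) and without S9CC47 R6 (50 and 52), while the pair as block alone gave 76 and 52. Among single genes, ETS1 had 8 lower and 0 higher of 26, ZEB2 7 and 0 of 28 and PAX7 4 and 0 of 30, while MSX2 had 0 lower and 6 higher of 16 and MSX1 2 and 7 of 26. Calls were in both directions at SNAI1 (4 lower and 3 higher of 21), TFAP2A (4 and 1 of 27) and ALX4 (2 and 3 of 38). An intronic RE of ETS1, a factor of delaminating crest (chr11:128552879-128553379), fell from a median of 14.6 CPM (6.15 to 17.5) to 0.861 CPM (0.741 to 1.25), a log2 change of -3.80 (SE 0.18, adjusted p = 1.7e-10, edgeR). It held 0 SOX cores as searched. At ZEB2, a repressor in crest migration, an RE with facing cores 60.5 kb from the start fell by 1.04.

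Osteoblast genes had 3 lower (2.65%) and 11 higher (9.73%) of 113 REs. The lower ones were all at RUNX2, which also had 6 higher, and COL1A2 had 2 higher. The list had 3 lower and 2 higher without batch as covariate, and 8 and 17 with the pair as block. RUNX2, a factor of both bone and cartilage, is in the chondrogenic list too. An intronic RUNX2 RE fell from a median of 2.66 CPM (1.80 to 4.74) to 1.21 CPM (0.951 to 1.76), a log2 change of -1.20 (SE 0.15, adjusted p = 7.0e-06, edgeR), and an RE 30.7 kb from COL1A2 rose by 0.63.

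Among signalling pathways, genes of the FGF pathway had 32 lower (15.9%) and 10 higher (4.98%) of 201 REs, and WNT genes 61 lower (12.9%) and 15 higher (3.18%) of 472. With the pair as block these were 52 and 14, and 89 and 43. The FGF feedback inhibitors SPRY1 and SPRY4 had 5 lower and 0 higher of 17 and 5 lower and 1 higher of 28, and the receptor FGFR1 6 and 1 of 26. An RE 19.9 kb from ETV4, an ETS factor downstream of FGF, lay in an exon of DHX8 and fell from a median of 30.3 CPM (27.0 to 45.0) to 4.92 CPM (3.11 to 12.6), a log2 change of -2.42 (SE 0.17, adjusted p = 5.8e-09, edgeR). From 16 to 500 nM it gave a further log2 change of -1.52 (adjusted p = 0.00015, edgeR), and an RE near SPRED1 gave -2.33 and then -2.01 (adjusted p = 0.0013).

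In the WNT list, NKD1, a feedback inhibitor, had 8 lower of 35 REs, SFRP1, a secreted antagonist, 7 lower and 3 higher of 25, and AXIN2, a target and inhibitor, 5 and 2 of 22. The intronic RE of the co-receptor gene LRP6 (chr12:12240595-12241376) fell from a median of 16.8 CPM (11.2 to 21.7) to 1.85 CPM (1.24 to 3.02), a log2 change of -3.06 (SE 0.18, adjusted p = 8.8e-10, edgeR), with no overlap.

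Genes of the BMP and TGF-beta pathways had 54 lower (10.9%) and 41 higher (8.25%) of 497 REs, and the larger direction turned with total-count scaling (48 and 59), with the pair as block (75 and 84, or 71 and 93 with a GC correction), with all 42 samples in the fit (56 and 58) and without S9CC47 R6 (61 and 75). The ligand gene BMP7 had 11 lower and 2 higher of 27, and SMAD3, a mediator of TGF-beta signals, 6 and 0 of 35. BAMBI, a pseudoreceptor, had 0 lower and 4 higher of 18, and BMP5 1 and 4 of 11. The receptor gene BMPR1B held REs of both directions. Its exonic RE (chr4:95155033-95155533) fell by 2.21 (SE 0.15, adjusted p = 5.6e-09, edgeR), from 2.18 to 18.2 CPM at 0 nM to 0.599 to 3.13 CPM at 16 nM with overlap, and a promoter RE (chr4:94975892-94977092) rose by 0.80 (SE 0.10, adjusted p = 4.5e-06).

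Genes of AP-1 factors and YAP targets had 12 lower (6.0%) and 19 higher (9.5%) of 200 REs, where 9.12 and 7.12% of all REs were, and 23 and 30 with the pair as block. The larger direction was lost without batch as covariate (6 and 2), without S9CC47 R5 (11 and 9), S9CC47 R8 (11 and 11) or S9CC13 R13 (12 and 12), and with REs in the gene body or near the start alone (7 and 6). The 2 REs with the smallest p-values, in introns of TEAD1 and YAP1, had log2 fold changes of -1.21 and -1.56. Markers of pluripotent cells had 7 lower (12.7%) and 3 higher (5.45%) of 55 REs, and 10 and 5 with the pair as block. Those of neuroepithelium had 10 lower (11.0%) and 4 higher (4.40%) of 91. Counting REs in the gene body or within 1 kb of the start alone left 0 and 2 for neuroepithelium. The LIN28A promoter RE fell from a median of 32.9 CPM (27.8 to 35.6) to 21.6 CPM (17.5 to 23.5), a log2 change of -0.65 (SE 0.06, adjusted p = 3.9e-07, edgeR). An RE 39.3 kb from SOX1 fell by 2.44 and an RE 35.4 kb from OTX2 fell by 1.82. Housekeeping genes had 6 lower (7.79%) and 1 higher (1.30%) of 77, with 5 and 6 under total-count scaling, 9 and 8 with the pair as block, 7 and 13 with a GC correction added and 5 and 5 with all 42 samples in the fit. Their RE with the smallest p-value was assigned to RPLP0 by distance, lay within PXN, and fell by 1.65, and an RE 16.7 kb from HPRT1 fell by 0.89, a call lost without batch as covariate (adjusted p = 0.31, edgeR).

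**Figure D5:**
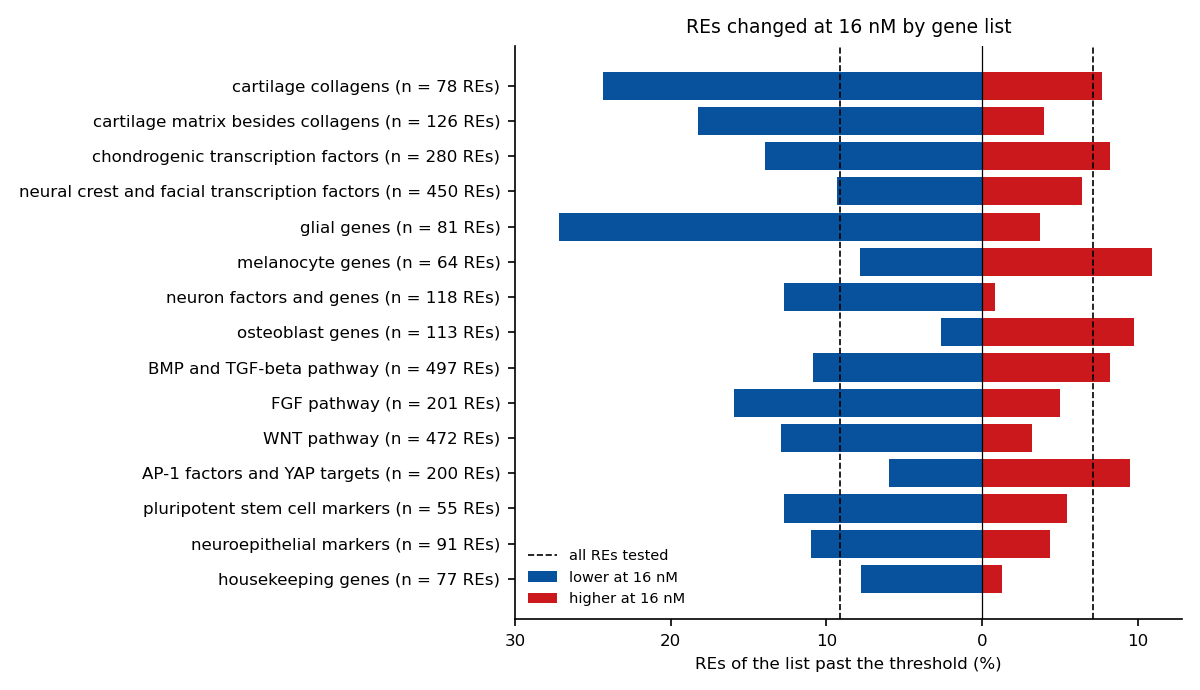
Share (%) of the REs of each gene list that were lower (blue, to the left) or higher (red, to the right) at 16 nM, with dashed lines for the shares over all REs tested (9.12 and 7.12%). Glial genes and cartilage collagens have the largest lower shares (27.2 and 24.4%), and melanocyte and osteoblast genes the largest higher shares (10.9 and 9.73%).

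Among 6,252 genes with at least 8 assigned REs, HEYL, a target and repressor of the Notch pathway, had the largest share of lower REs, with 8 of 8. Their log2 fold changes ran from -2.05 to -0.33, with the lowest in an intron (chr1:39637267-39638148). KCNK5, a potassium channel gene, had 9 of 11 lower (median log2 fold change -0.57), IER3, an immediate early gene, 7 of 10 (-0.66) and POFUT2 12 of 18 (-0.40), and the 3 had 0 higher. COL2A1 and 1 other gene, with 6 of 9 each, had the same share as POFUT2, which was named for its larger number of REs. The largest shares of higher REs were at MRC1, the mannose receptor of macrophages (6 of 11, with a median log2 fold change of 0.31), PRKG2, a cGMP-dependent kinase of cartilage growth (6 of 11, 0.26), MYH15, a myosin heavy chain (10 of 20, 0.31) and TRPC5OS (6 of 12, 0.32). Of these 4, PRKG2 and TRPC5OS each had 1 lower RE. A further 4 genes, with 4 of 8 each, had the same share as MYH15 and TRPC5OS, which were named for their larger number of REs.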

How the data were processed

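ATAC-seq counts of the SOX9-tagged 48 h samples at 16 nM and 0 nM were compared. According to the study's methods, the authors trimmed adapters, aligned read pairs to hg38 (the submitters' processing notes name Bowtie2 2.4.1, SAMtools 1.10 and MACS2 2.2.7.1), removed duplicates, mitochondrial and low-quality reads, merged Tn5-shifted summits seen in several differentiations into REs of at least 501 bp, and deposited the raw count of each sample per RE, with no normalization and no pooling of replicates. REs whose summit was seen in too few combinations of differentiation and line were not listed. The WT time-course samples were not used here.

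Samples were grouped by title. For S9CC13 R14 the titles were followed, since its labels of 0 and 0.5 nM are exchanged against them. In the time course, columns of R5 name another clone than the titles and were matched by differentiation, treatment and time.

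Counts were fitted with edgeR 4.0.16 (TMM, trended dispersion, quasi-likelihood F test, no filter, Benjamini-Hochberg adjustment over all REs, threshold 0.05), where differentiation batch was the covariate, after the study's methods. SEs were derived from the F statistic. Clones alone and their difference were fitted with the pair as block, and the time course in a fit of its 6 tagged samples with batch. The script was tested on simulated data. Samples of the same clone and differentiation deviated together from their group means (mean correlation 0.775, lowest 0.619, against -0.128 for other pairs, over 86,544 REs), so the numbers pair the samples. A differentiation is a separate culture. No 2 samples agreed within counting noise (lowest reduced chi-square 2.60 over 91 pairs). CPM was scaled by TMM over the 42 dose-series samples, with 0.1 CPM added for changes in single pairs. In the main fit precision was set by the spread left after batch. That spread includes the difference between the clones in R6, the batch they share. In fits with the pair as block it was set by the spread between pairs. Floors from counts cover counting error only. Genes and starts were from GENCODE 44. Coordinates are 1-based. Alternatives were DESeq2 1.42.0, RLE and total scaling, a filter at 1 CPM, the pair as block with and without GC correction, no batch, all 42 samples, thinned libraries, and each replicate left out.

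Named REs were the 5 lowest and 5 highest log2 fold changes past the threshold (mean count of at least 50, 7 of 7 pairs in 1 direction, 1 per nearest gene), the 2 with the smallest p in each of 15 gene lists, the 3 promoter REs with the smallest p each way, the 4 lower facing-core REs with the smallest p, the 4 genes each way with the largest share of called REs (at least 8 REs), the RE at the SOX9 start, and, after their values were seen, the REs of the clone test. Genes within the lists were named for their counts after these were seen. A few named items are not reported here. The comparison and the lists were chosen with earlier results of these data known.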

Additional observations from a re-analysis of the deposited data

Results flagged for a closer look

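In 8 of 112 groups of 7 values (7.14%) the highest or lowest value stood apart from the others by Dixon's criterion, which chance meets in about 1 of 20 groups. Pair S9CC47 R8 gave 5 of the 8. Its 0 nM library held 64.81 M counts against 39.17 to 46.91 M in the others. At 0 nM it held 12.2 CPM at the OTX2 RE (others 3.87 to 7.19) and 18.3 CPM at the HPRT1 RE (others 2.74 to 7.48), and at 16 nM it held 9.24 CPM at the HPRT1 RE (others 1.41 to 3.69). The median change at 16 nM of REs higher at 3 h was 0.24 in this pair and 0.02 to 0.10 in the others. The remaining 3 were the 0 nM sample of S9CC47 R5 at the MKI67 RE (2.73 CPM, others 0.547 to 1.36), the 16 nM sample of S9CC13 R13 at the RGS3 RE (3.99 CPM, others 1.53 to 2.58) and the 0 nM sample of S9CC13 R6 at the ZFP36L2 RE (27.2 CPM, others 17.1 to 21.1).

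The response of 6 REs differed between the clones by the interaction test, with a lower log2 fold change in S9CC47 at each. The differences (S9CC47 minus S9CC13) were -0.74 near VWA1, -1.26 near RGS3, -1.03 in PIWIL4-AS1, -1.32 in KATNIP, -0.78 in LINC02580 (nearest coding start ZFP36L2) and -1.05 near POFUT2, with adjusted p-values of 0.021 to 0.049 (edgeR). The smaller responses of S9CC13 R13 and R14 enter these differences, and their part was not tested.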

How the results depend on the processing

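The number of REs changed at 16 nM was within 1.5 times of 24,604 under all 42 samples (29,618), DESeq2 (23,667), RLE scaling (23,958), total scaling (26,159), the 1 CPM filter (22,426 of 127,673), thinning (22,963) and the block with GC correction (35,384), while it moved to 39,497 with the replicate block and to 7,717 with neither block nor batch. Leaving out a pair gave 17,513 (without S9CC47 R8) to 33,526 (without S9CC13 R6). No RE was called in the opposite direction under any of these settings. With the replicate block the count from 16 to 500 nM moved from 1,933 to 12,313. From 5 to 16 nM it moved from 1,453 to 3,481 with the replicate block, to 2,195 with DESeq2 and to 5,488 without S9CC47 R6, an alternative chosen after seeing the data, like the fit without S9CC13 R13 and R14. The clone test gave 6 REs, 2 with DESeq2, 1 with the filter and 0 to 655 with a pair left out. S9CC13 alone gave 15,021, 8,858 with DESeq2, 1,517 with no replicate block and 7,310 to 15,063 with a pair left out, and S9CC47 alone 33,476, 17,904, 3,723 and 24,781 to 27,576. At 3 h 12,633 REs became 0 with no block (8,306 at an unadjusted p under 0.05) and 7,487 to 18,809 with a sample left out, and at 24 h 22,160 became 13,283 with DESeq2, 969 with no block and 10,741 to 26,522 with a sample left out. The cause of these moves was not tested. Of 884 recomputed values of the named REs, 880 kept their direction and side of the threshold. Without batch HPRT1, CLUL1 and SH3RF2 lost the call, and with the block and GC correction the RE at the SOX9 start passed. In 250 of 270 recounts the gene lists kept their larger direction. The replicate block changed no call at 16 nM of a named RE. From 16 to 500 nM it changed no call of the REs whose adjusted p-value for that step is given above. Other named REs passed that step with the block and not in the main fit. Among them were those of ACTN4 (adjusted p = 0.13 without and 0.030 with the block, edgeR), MKI67 (0.096 and 0.0089) and LRP6 (0.11 and 0.018). Depth limits REs near 0 CPM, where few counts remain at 16 nM.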
